A study of Mus musculus with 5 samples.

Results

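Cyclic nucleotide phosphodiesterases are the enzymes that break down the second messengers cAMP and cGMP, and 10 of their genes with known roles in brain, Pde10a, Pde1a, Pde1b, Pde1c, Pde2a, Pde4a, Pde4b, Pde4d, Pde7b and Pde8b, were followed in mouse striatum. They were found by their symbols in a table of 26369 genes, where they took 11 rows, because Pde4d was listed under a pair of Ensembl identifiers. All 11 rows passed the filter on low counts. Total RNA of the striatum was sequenced in 3 wild-type (WT) and 2 R6/1 libraries. Mice of both groups came from CBA and C57BL/6 stock in equal parts, and no treatment is named. R6/1 mice are a transgenic model of Huntington's disease that expresses exon 1 of the disease gene with an expanded CAG repeat, labelled 115 repeats. The sources used here do not give the promoter that drives the transgene, the age or sex of the mice, or whether each library came from its own animal. The p-values therefore cover the spread among the sequenced libraries alone, and that spread could be technical.

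Medium spiny neurons, the projection neurons that make up most striatal neurons, receive dopamine through receptors that raise or lower cAMP. Nitric oxide signalling raises cGMP in the same cells. Phosphodiesterases end these signals. PDE10A hydrolyses both nucleotides and is concentrated in medium spiny neurons. The PDE1 enzymes need calcium and calmodulin and also hydrolyse both nucleotides, and PDE2A does so under stimulation by cGMP. PDE4, PDE7 and PDE8 enzymes act on cAMP alone.

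Total counts per library were 19630036 to 23046266 in WT and 29871306 and 34379064 in R6/1, so that depth and genotype go together. The lowest count of any of the 11 rows was 390. The marker lists were chosen with earlier results of these data known. All 13 listed markers of medium spiny neurons were detected and all 13 were lower in R6/1. Their summed level was 5807 to 6570 CPM (counts scaled to the TMM-normalized library size) in WT and 2135 and 2162 CPM in R6/1. Of 10 markers shared by most neurons, 4 were lower and 2 higher, with sums of 5301 to 6134 CPM in WT and 5283 and 5379 CPM in R6/1. Mtap2 alone gave 2000 to 2201 CPM of the sum in WT and 2362 and 2311 CPM in R6/1. The median log2 fold change of the 10 was -0.25. WT replicates 1 and 2 stood apart by markers of the choroid plexus, the secretory tissue inside the neighbouring ventricle. Their 9 markers summed to 5518 and 5478 CPM there, against 423 CPM in WT replicate 3 and 460 and 334 CPM in R6/1. Markers of cortical neurons, 8 in all, summed to 86.4, 286 and 180 CPM in WT and to 152 and 95.6 CPM in R6/1. Of 9 astrocyte markers, 4 were lower and 1 higher, with sums of 4885 to 5015 CPM in WT and 3457 and 3544 CPM in R6/1. Of 9 oligodendrocyte markers, 3 were lower and 1 higher. They summed to 6823, 4891 and 6632 CPM in WT and to 4931 and 4746 CPM in R6/1. Over all tested genes, 12.8% were called lower and 9.72% higher, and the marker counts were not tested against these shares. The choroid plexus markers served as a covariate in a fit given below, and WT replicates 1 and 2 were left out in another. The part of the cortical, astrocyte and oligodendrocyte RNA in the results that follow was not tested.

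Of the 11 phosphodiesterase rows, 8 were lower in R6/1, 1 was higher and 2 were not called by edgeR's quasi-likelihood test at a Benjamini-Hochberg adjusted p below 0.05 over all 17202 genes tested. Over all tested genes, 12.8% were called lower and 9.72% higher. In the 8 rows that fell, both R6/1 libraries lay below all 3 WT libraries, a separation found in 26.9% of all tested genes. In the row that rose, both lay above, as in 27.2% of all tested genes. Pde10a, Pde1b, Pde2a and Pde7b were called lower with a fall of at least 2-fold, as were 4.51% of tested genes. The median log2 fold change of the 11 rows was -0.57, against -0.01 for all tested genes. In tissue RNA, fewer cells of a type and less RNA per cell cannot be told apart.

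The promoters of the 4 genes that fell most are shown with that of Pde4d. Of the Pde4d rows, ENSMUSG00000074661 was called higher, a call not kept in every setting, and ENSMUSG00000021699 was not called. Windows were matched by gene symbol, so the Pde4d window is not tied to the row that rose. Each run holds the 150 bases before an annotated RefSeq start of the GRCm38.p6 build, 5′ to 3′ on the strand of the gene, and capitals mark a GC box, GGGCGG, read on either strand.

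Pde10a, start 1, chr17:8801595-8801744 (plus strand): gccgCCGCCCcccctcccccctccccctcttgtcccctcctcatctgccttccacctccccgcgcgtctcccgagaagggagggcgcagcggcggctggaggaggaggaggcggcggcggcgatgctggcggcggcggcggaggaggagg
Pde10a, start 2, chr17:8849835-8849984 (plus strand): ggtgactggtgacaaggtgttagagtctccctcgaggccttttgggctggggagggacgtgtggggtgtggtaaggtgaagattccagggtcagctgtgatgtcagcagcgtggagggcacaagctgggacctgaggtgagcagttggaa
Pde1b, start 1, chr15:103502884-103503033 (plus strand): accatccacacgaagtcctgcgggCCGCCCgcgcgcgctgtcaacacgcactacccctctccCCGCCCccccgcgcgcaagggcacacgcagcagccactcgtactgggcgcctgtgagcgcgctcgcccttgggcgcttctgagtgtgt
Pde2a, start 1, chr7:101421541-101421690 (plus strand): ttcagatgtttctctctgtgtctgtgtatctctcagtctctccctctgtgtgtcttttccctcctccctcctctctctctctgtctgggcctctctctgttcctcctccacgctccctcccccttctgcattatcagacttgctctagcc
Pde7b, chr10:20548329-20548478 (minus strand): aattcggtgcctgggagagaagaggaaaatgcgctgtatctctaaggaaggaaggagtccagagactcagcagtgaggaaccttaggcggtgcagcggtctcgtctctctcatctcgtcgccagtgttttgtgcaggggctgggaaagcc
Pde4d, chr13:108654027-108654176 (plus strand): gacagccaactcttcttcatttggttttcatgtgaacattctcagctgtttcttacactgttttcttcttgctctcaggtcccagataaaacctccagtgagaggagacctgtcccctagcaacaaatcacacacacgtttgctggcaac

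The first start of Pde10a lay in a stretch of 78% G and C with a GC box on the opposite strand beginning 146 bases before the start, and the second start had no GC box and 58.7% G and C. The first start of Pde1b had GC boxes on the opposite strand beginning 126 and 88 bases before it. The printed windows of Pde2a, Pde7b and Pde4d held none, with 53.3%, 55.3% and 45.3% G and C. Pde2a has 5 annotated starts, and its start 4, not printed, held GC boxes on its own strand beginning 26, 15 and 9 bases before it. Over all 31 annotated starts of the 10 genes, 7 windows of 5 genes held a GC box, against 28.6% of 32851 RefSeq windows of the same length. The full cAMP response element, the palindrome TGACGTCA, was in 0 of the 31 windows and in 1.36% of all windows. Its core, TGACG on either strand, was in 2 of the 31, at starts of Pde4a and Pde4b, and in 13.3% of all, full elements included. These matches are a description of letters. The counts are per gene, so which start was used in these libraries is not known.

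Pde10a (ENSMUSG00000023868) fell most of the 10 genes. It was at 2767, 2360 and 2690 CPM in WT and at 491 and 490 CPM in R6/1. The R6/1 libraries were close to each other and far below every WT library. Its log2 fold change was -2.41 (SE 0.09), or 5.31-fold lower, with an edgeR adjusted p of 8.47e-05. By p it ranked 3 of all 17202 genes tested, and 1.07% of tested genes had a lower log2 fold change. Among the 13 markers of medium spiny neurons, 2 fell more than Pde10a.

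Pde1b (ENSMUSG00000022489), the calcium-dependent enzyme best known from striatum, was the next. It was at 1623, 1327 and 1598 CPM in WT and at 375 and 437 CPM in R6/1. The groups were far apart, with a log2 fold change of -1.90 (SE 0.12, edgeR adjusted p = 0.000169), or 3.73-fold lower, and 1.93% of tested genes had a lower value. Of the 13 markers of medium spiny neurons, 3 fell more than Pde1b. Its relative Pde1c (ENSMUSG00000004347), whose enzyme binds both nucleotides with high affinity, was at 106, 82.4 and 86.3 CPM in WT and at 52.3 and 48.5 CPM in R6/1. Pde1c was 1.82-fold lower, with a log2 fold change of -0.86 (SE 0.12, edgeR adjusted p = 0.00402).

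Pde1a (ENSMUSG00000059173), the remaining calcium-dependent gene, was not called. It was at 38.3, 118 and 87.1 CPM in WT and at 70.4 and 57.6 CPM in R6/1. The R6/1 values lay inside the WT range, and the WT libraries spread more widely, for their mean, than in any other of the 10 genes. Its log2 fold change was -0.34 (SE 0.39, edgeR adjusted p = 0.568). Across the 5 libraries it had the same order as the sum of the 8 cortical markers, lowest in WT replicate 1 and highest in WT replicate 2. The part of cortical RNA in the values of Pde1a was not tested. Without WT replicate 1 its log2 fold change was -0.68 with an edgeR adjusted p of 0.0382, and without WT replicate 2 it was 0.03 with an edgeR adjusted p of 0.952.

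Pde2a (ENSMUSG00000030653), whose enzyme links cGMP to the breakdown of cAMP, was at 666, 617 and 773 CPM in WT and at 340 and 278 CPM in R6/1. No R6/1 library reached the WT range, and the gene was 2.22-fold lower (log2 fold change -1.15, SE 0.13, edgeR adjusted p = 0.00145). Pde2a, Pde7b and Pde1c each fell less than 9 of the 13 markers of medium spiny neurons.

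Of the genes for cAMP-specific enzymes, Pde7b (ENSMUSG00000019990) fell most. It was at 356, 318 and 322 CPM in WT and at 168 and 154 CPM in R6/1, with a log2 fold change of -1.04 (SE 0.08, edgeR adjusted p = 0.000383), or 2.06-fold lower. Both R6/1 libraries lay far below the WT libraries, which were close together. Pde7a, the other gene of the same family, had a log2 fold change of -0.03 (edgeR adjusted p = 0.831). Within a library, the log2 ratio of Pde7b to Pde7a per kb of gene length was 1.61 ± 0.11 (SD, n = 3) in WT and 0.60 ± 0.19 (SD, n = 2) in R6/1, a difference of -1.01 (exact two-sided permutation p = 0.1, the smallest that 3 libraries against 2 can give).

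Pde8b (ENSMUSG00000021684), for an enzyme of high affinity for cAMP, was at 256, 195 and 227 CPM in WT and at 153 and 151 CPM in R6/1. The groups did not overlap and the gene was 1.49-fold lower (log2 fold change -0.57, SE 0.11, edgeR adjusted p = 0.0135). Its relative Pde8a had a log2 fold change of -0.02 (edgeR adjusted p = 0.894), and the log2 ratio of Pde8b to Pde8a per kb moved from 3.19 ± 0.15 (SD, n = 3) to 2.65 ± 0.13 (SD, n = 2), a difference of -0.54 (exact two-sided permutation p = 0.1). Both family comparisons were picked with their values in view.

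The PDE4 genes, whose enzymes are the target of the inhibitor rolipram, did not all move in the same direction. Pde4b (ENSMUSG00000028525), the most abundant of them, was at 275, 236 and 265 CPM in WT and at 192 and 191 CPM in R6/1, 1.35-fold lower (log2 fold change -0.43, SE 0.08, edgeR adjusted p = 0.0116). Pde4a (ENSMUSG00000032177) was at 35.9, 39.8 and 35.6 CPM in WT and at 29.5 and 28.6 CPM in R6/1, 1.28-fold lower (log2 fold change -0.35, SE 0.09, edgeR adjusted p = 0.0289). In neither gene did the groups overlap. The log2 ratio of Pde4b to Pde4a per kb was 3.12 ± 0.20 (SD, n = 3) in WT and 3.04 ± 0.03 (SD, n = 2) in R6/1, and the libraries overlapped (exact two-sided permutation p = 0.7).

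Pde4d gave a pair of rows. The row ENSMUSG00000074661 was at 19.4, 20.5 and 20.6 CPM in WT and at 27.7 and 25.8 CPM in R6/1. Its groups did not overlap and it was 1.33-fold higher (log2 fold change 0.41, SE 0.09, edgeR adjusted p = 0.0190). The row ENSMUSG00000021699, the identifier that the GENCODE M21 gene names still carry, was at 55.5, 60.0 and 64.7 CPM in WT and at 75.1 and 64.2 CPM in R6/1. Its groups overlapped and it was not called (log2 fold change 0.21, SE 0.10, edgeR adjusted p = 0.173). The sources used here do not say how reads were shared between the Pde4d identifiers, so the split between them is uncertain. The log2 ratio of Pde4b to either Pde4d row per kb differed by -0.64 and -0.84, with no overlap between groups (exact two-sided permutation p = 0.1 for each, pairs picked with their values in view).

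**Figure D1:**
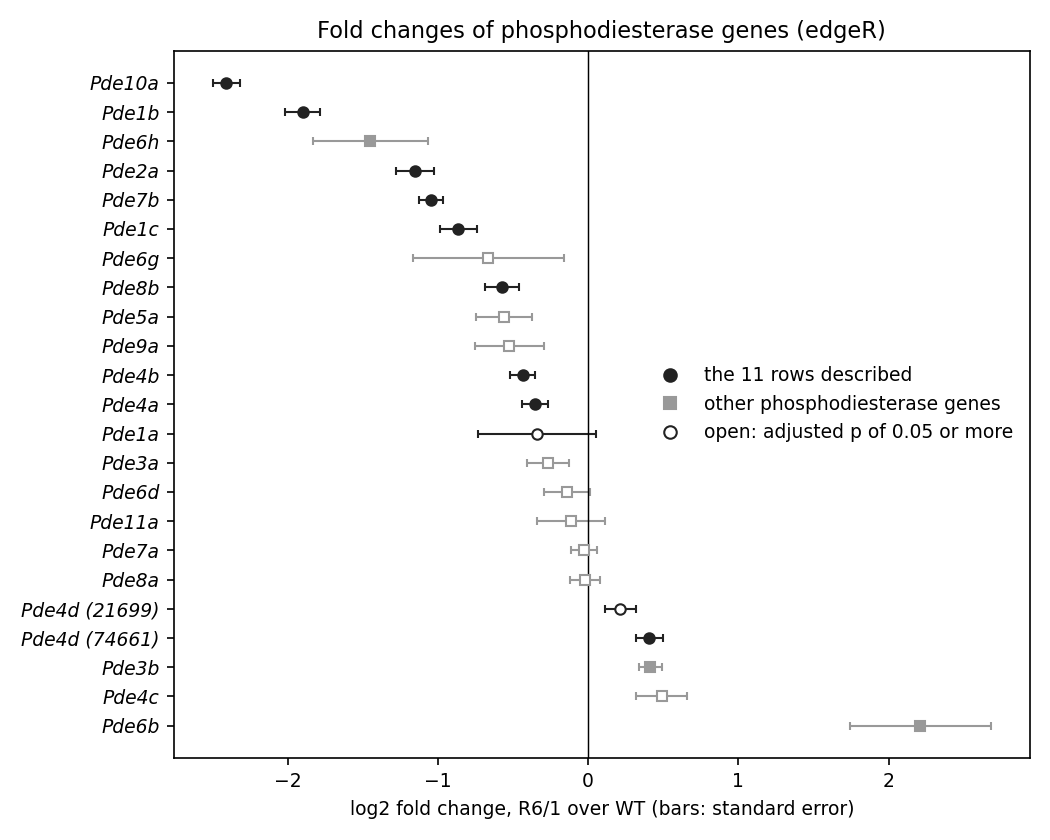
Log2 fold change of R6/1 over WT with its standard error for the 11 phosphodiesterase rows and for the 12 other phosphodiesterase genes tested, with filled points for genes called by edgeR at an adjusted p below 0.05. Pde10a at -2.41 and Pde1b at -1.90 lie far to the left, and both Pde4d rows, Pde3b, Pde4c and Pde6b lie right of 0, of which Pde4c and the Pde4d row ENSMUSG00000021699 were not called.

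**Figure D2:**
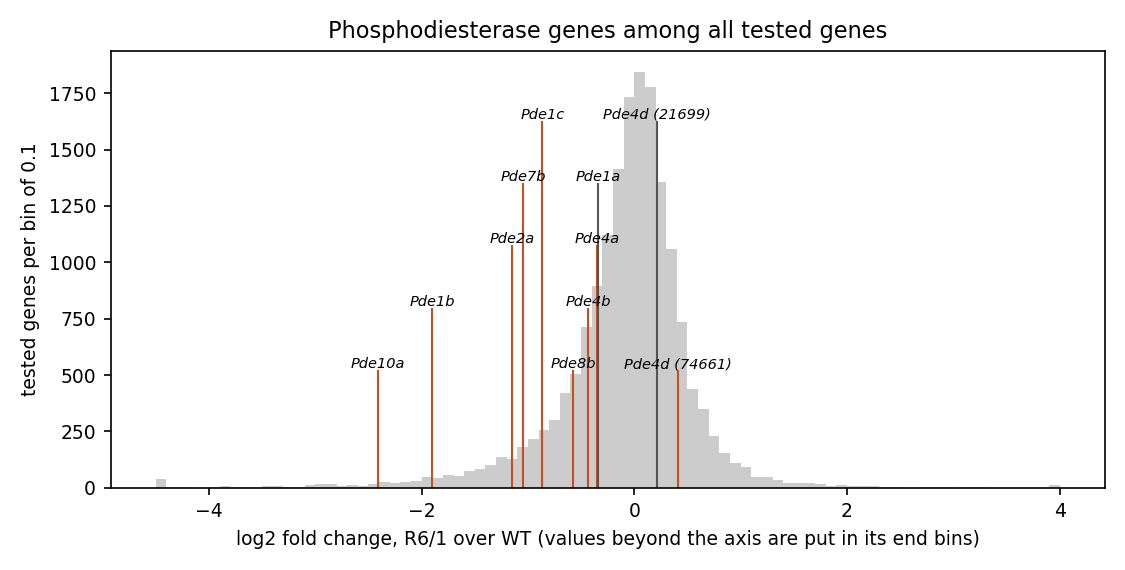
Number of tested genes by log2 fold change of R6/1 over WT, with the 11 phosphodiesterase rows marked. The 17202 genes centre near 0, and 1.07% of them lie to the left of Pde10a.

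Per kb of the authors' gene length, Pde10a led in WT with 18896 ± 1542 normalized counts per kb (SD, n = 3), followed by Pde1b with 12912 ± 1385. The order of genes, the sums and the shares rest on these lengths, which were not tested. Pde7b had a length of 1.70 kb and Pde2a of 4.04 kb, and in CPM Pde2a was the higher in WT (mean 685 against 332). Pde7b (4922 ± 296) and Pde2a (4270 ± 501) came next and overlapped with each other. Pde4b, at 2657 to 3089 normalized counts per kb, and Pde8b, at 2073 to 2713, overlapped too. Pde1a (1236 ± 614) overlapped with the Pde4d row ENSMUSG00000021699 (737 ± 58.2). Pde1c (493 ± 68.0), Pde4a (334 ± 21.2) and the Pde4d row ENSMUSG00000074661 (274 ± 9.37) were lowest and did not overlap. In R6/1, Pde10a was at 3594 and 3603 normalized counts per kb and Pde1b at 3226 and 3773. There the Pde1b libraries lay on either side of Pde10a, so these genes were no longer separated. Next in R6/1 came Pde7b at 2508 and 2319, Pde4b at 2175 and 2182 and Pde2a at 2138 and 1753 normalized counts per kb.

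**Figure D3:**
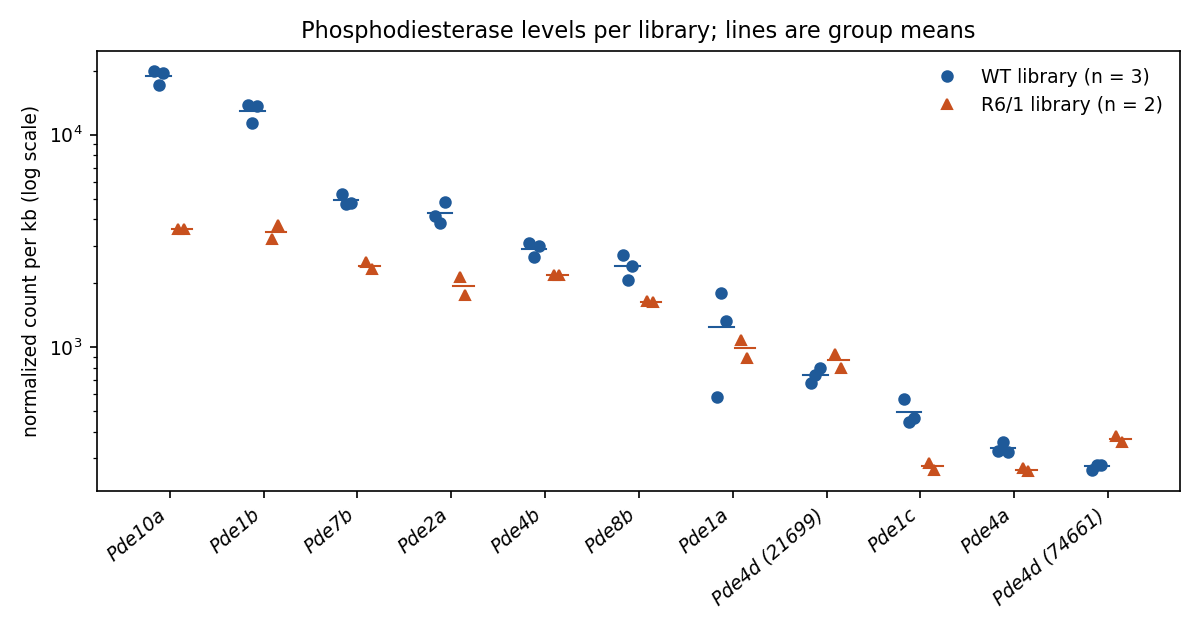
Level of each phosphodiesterase row in the 3 WT and 2 R6/1 libraries as the authors' normalized counts per kb of gene length, on a log axis, with a point per library. Pde10a drops from 18896 to 3599 on average and meets Pde1b, while Pde4b, Pde4a and Pde4d shift less.

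The ratio of Pde10a to Pde1b within a library does not depend on how libraries are scaled. Per kb its log2 was 0.54, 0.60 and 0.52 in WT and 0.16 and -0.07 in R6/1, a difference of -0.51 with no overlap (exact two-sided permutation p = 0.1). Pde10a also lost ground to each of the other rows, with no overlap in any ratio. That direction, also against Pde1b, follows from its log2 fold change, the lowest among the followed rows. The differences largely restate the fold changes given above. The R6/1 minus WT difference of the log2 ratio was -1.25 against Pde2a, -1.36 against Pde7b, -1.55 against Pde1c, -1.84 against Pde8b, -1.97 against Pde4b, -2.05 against Pde4a and -2.20 against Pde1a. Against the Pde4d rows it was -2.62 (ENSMUSG00000021699) and -2.81 (ENSMUSG00000074661). Each of these ratios had an exact two-sided permutation p of 0.1. The ratio to Pde4b was the tightest, with 2.70, 2.69 and 2.71 in WT and 0.72 in both R6/1 libraries. Against Ppp1r1b, the gene of the medium spiny neuron phosphoprotein DARPP-32, the log2 ratio of Pde10a per kb was 0.51 ± 0.02 (SD, n = 3) in WT and -0.03 ± 0.08 (SD, n = 2) in R6/1, a pair picked with its values in view.

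Summed over the 11 rows, the phosphodiesterase signal per kb was 51417, 45365 and 51376 in WT and 18223 and 17824 in R6/1. The R6/1 sums were 2.74-fold lower, with no overlap (exact two-sided permutation p = 0.1). Without Pde10a the sum was 2.11-fold lower, and without Pde10a and Pde1b it was 1.61-fold lower, with no overlap in either sum. The PDE1 genes together were 3.08-fold lower, and Pde4a, Pde4b and Pde4d together, named the PDE4 genes here without Pde4c, 1.16-fold lower. The sum of the PDE4 genes was 4354, 4032 and 4382 normalized counts per kb in WT and 3752 and 3597 in R6/1. Both sums stayed lower in R6/1 when libraries were scaled by TMM or by their totals alone, with a log2 ratio for the PDE4 genes of -0.23 and -0.11.

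The make-up of the summed signal differed with genotype. Rows for enzymes that hydrolyse both nucleotides gave 76.5% ± 0.787 (SD, n = 3) of it in WT and 57.2% ± 0.740 (SD, n = 2) in R6/1. Pde10a alone went from 38.2% ± 0.602 to 20.0% ± 0.349 and Pde1b from 26.1% ± 1.01 to 19.4% ± 2.45. The share of the PDE4 genes rose from 8.63% ± 0.227 to 20.4% ± 0.290, and that of Pde4b from 5.89% ± 0.103 to 12.1% ± 0.215, although Pde4b itself was lower. Pde7b, also lower in level, held 9.98% ± 0.581 in WT and 13.4% ± 0.533 in R6/1. In each of these shares the groups did not overlap (exact two-sided permutation p = 0.1). Shares add to a fixed total, so a fall of Pde10a raises the others.

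**Figure D4:**
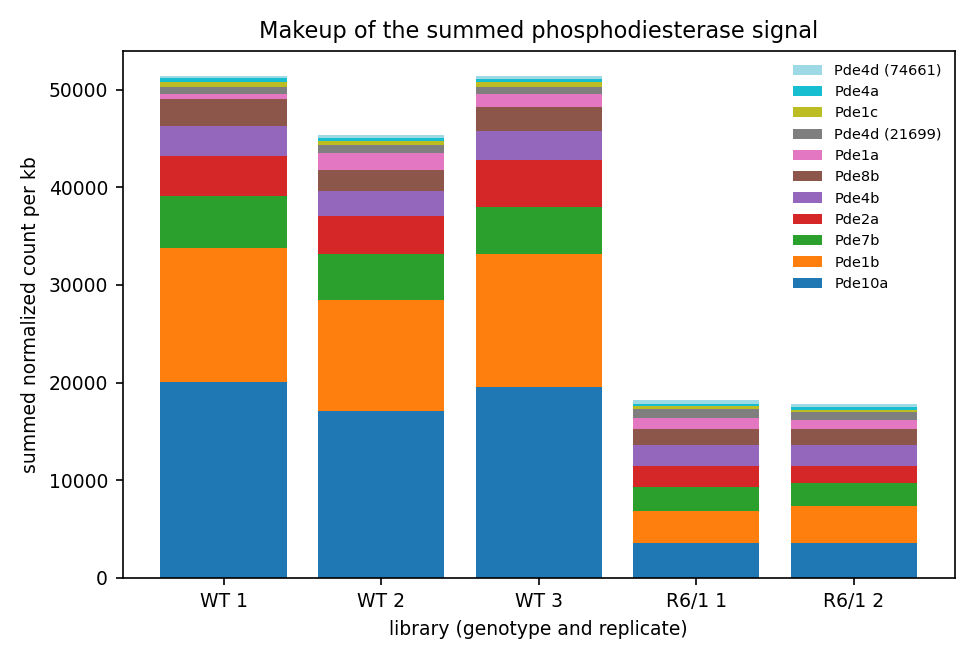
Normalized counts per kb of the 11 phosphodiesterase rows stacked in each of the 3 WT and 2 R6/1 libraries, with a bar per library from 0. The bars stand at 45365 to 51417 in WT and at 17824 and 18223 in R6/1, and the Pde10a and Pde1b segments shrink most.

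The 14 other phosphodiesterase genes gave the smaller part of the signal per kb, and a larger part of it in R6/1 than in WT. In R6/1, all phosphodiesterase rows summed to 22039 and 21685 normalized counts per kb, and the 10 followed genes to 18223 and 17824. Pde10a alone was there at 3594 and 3603. The 10 followed genes made up 93.0% ± 0.484 (SD, n = 3) of the signal per kb of all phosphodiesterase rows in WT and 82.4% ± 0.348 (SD, n = 2) in R6/1. These shares depend on the authors' lengths, which were short for Pde3b (0.719 kb) and Pde7a (0.761 kb) and so raise their part. In CPM the 14 other genes summed to 164 to 172 in WT and to 165 and 159 in R6/1, where Pde10a alone was at 491 and 490. Of 12 other genes tested, 1 was lower, 2 were higher and 9 were not called, with a median log2 fold change of -0.13. Among all tested genes, 12.8% were lower and 9.72% higher. Pde3b, for a cAMP-hydrolysing enzyme inhibited by cGMP, was at 25.8, 25.9 and 25.4 CPM in WT and at 33.9 and 34.6 CPM in R6/1 (log2 fold change 0.41, SE 0.08, edgeR adjusted p = 0.0113). The photoreceptor genes Pde6b (log2 fold change 2.21, SE 0.47, edgeR adjusted p = 0.0171) and Pde6h (-1.45, SE 0.38, edgeR adjusted p = 0.0342) were called at levels of 0.173 and 1.21 CPM in WT and 0.821 and 0.437 CPM in R6/1. None of these 3 calls held when either R6/1 library was left out. Pde4c, the remaining gene of the PDE4 family, was at 3.81, 3.63 and 3.70 CPM in WT and at 5.55 and 4.88 CPM in R6/1, with no overlap, and was not called (log2 fold change 0.49, SE 0.17, edgeR adjusted p = 0.0777). Pde5a and Pde9a, whose enzymes prefer cGMP, had log2 fold changes of -0.56 and -0.53 and were not called (edgeR adjusted p = 0.0708 and 0.139).

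Around the phosphodiesterases, genes that make the nucleotides were measured as well. Over all tested genes, 12.8% were called lower and 9.72% higher, and the counts in the gene lists that follow were not tested against these shares. The shares belong to the fit of all libraries. With either R6/1 library left out, fewer genes were called in both directions over the whole table too, so lost calls are not particular to these lists. Of 10 adenylyl cyclase genes, whose enzymes make cAMP, 4 were lower and 6 were not called, with a median log2 fold change of -0.35. Adcy5, the main striatal form, which is also among the 13 markers of medium spiny neurons, was at 1392, 1179 and 1339 CPM in WT and at 367 and 365 CPM in R6/1 (log2 fold change -1.83, SE 0.09, edgeR adjusted p = 9.46e-05). Its fall lay between those of Pde1b and Pde2a. Adcy9 followed with -0.88 (SE 0.12, edgeR adjusted p = 0.00304) and Adcy1 with -0.51 (SE 0.14, edgeR adjusted p = 0.0410). With either R6/1 library left out, 2 genes were called lower.

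Of 9 guanylyl cyclase and natriuretic receptor genes tested, 2 were lower and 2 higher, with a median log2 fold change of -0.46. Npr2, the receptor cyclase for C-type natriuretic peptide, was at 26.5, 27.4 and 26.5 CPM in WT and at 43.9 and 44.7 CPM in R6/1 (log2 fold change 0.72, edgeR adjusted p = 0.00117). Gucy2f, a retinal cyclase, had a log2 fold change of 1.29 (edgeR adjusted p = 0.00442), and Gucy1a3, a subunit of the nitric oxide receptor, of -0.46 (edgeR adjusted p = 0.0141). Neither call of a lower gene held with either R6/1 library left out.

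Of 9 genes of protein kinase A, the main cAMP effector, 1 was lower and 2 were higher, with a median log2 fold change of 0.21. Among all tested genes, 12.8% were lower and 9.72% higher. The regulatory subunit genes parted, with Prkar2b at -0.45 (edgeR adjusted p = 0.00611), Prkar2a at 0.99 (edgeR adjusted p = 0.00805) and Prkar1a at 0.32 (edgeR adjusted p = 0.0241). DESeq2 called 5 of the 9 higher and 1 lower, and without R6/1 replicate 2 edgeR called none of them. Of 10 other effector genes tested, 3 were lower and 7 were not called, with a median of -0.21. Among the 7, the channel gene Hcn3 had both R6/1 libraries above all WT libraries (log2 fold change 1.04, SE 0.32, edgeR adjusted p = 0.0529). DESeq2 called 4 genes of this list lower and 1 higher. The genes called lower by edgeR were Rapgef4, a cAMP-activated exchange factor (-0.49, edgeR adjusted p = 0.00548), Prkg2, a cGMP-dependent kinase (-0.83, edgeR adjusted p = 0.0222), and the channel gene Hcn2 (-0.31, edgeR adjusted p = 0.0320). Without R6/1 replicate 1, 1 of them was called and without R6/1 replicate 2, 0.

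Anchoring proteins hold protein kinase A and phosphodiesterases together at defined sites. Of 13 such genes tested, 4 were lower and 9 were not called, with a median log2 fold change of -0.18. Akap5, a postsynaptic anchor, was at 568, 537 and 499 CPM in WT and at 295 and 256 CPM in R6/1 (log2 fold change -0.96, edgeR adjusted p = 0.000836). Akap9 had -0.61 (edgeR adjusted p = 0.00208) and Akap11 -0.48 (edgeR adjusted p = 0.00680). With either R6/1 library left out, 2 genes were called lower. Pde4dip, for a protein that binds PDE4D, was not called (0.01, edgeR adjusted p = 0.951).

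Of 6 genes of the CREB group of cAMP-responsive factors, Creb1 was higher (0.37, edgeR adjusted p = 0.0147), Crem was lower (-0.50, edgeR adjusted p = 0.0180), 4 were not called and the median was 0.30. Neither call held without R6/1 replicate 1.

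The 5 genes whose values over the 5 libraries were most like those of Pde10a, by Euclidean distance of log2 CPM centred on the WT mean among 10019 genes, were Coch (0.136), Rgs11 (0.147), Myo3b (0.180), Adora2a (0.192) and Penk (0.212). Adora2a, the adenosine receptor of striatopallidal neurons, was at 180, 177 and 208 CPM in WT and at 34.5 and 35.2 CPM in R6/1. Penk, the enkephalin precursor of the same neurons, was at 772, 654 and 792 CPM in WT and at 134 and 122 CPM in R6/1. Coch was at 135, 116 and 137 CPM in WT and at 25.2 and 26.3 CPM in R6/1. The likeness covers 5 libraries in 2 groups, and these 5 genes fell by log2 fold changes of -2.53 to -2.33, close to that of Pde10a.

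Leaving out WT replicates 1 and 2, whose choroid plexus markers were high, left the log2 fold change of Pde10a at -2.45, of Pde1b at -1.97, of Pde2a at -1.32, and of Pde1c at -0.77. These 4 genes and Pde7b were called lower there and in each of the other settings tried, 12 in all. The calls of Pde8b and Pde4b were lost when either R6/1 library was left out. Their log2 fold changes were then -0.58 and -0.56 for Pde8b and -0.43 in both fits for Pde4b. The call of Pde8b was also lost with the mean log2 CPM of the choroid plexus markers as a covariate (edgeR adjusted p = 0.0650). The calls of Pde4a and of the Pde4d row ENSMUSG00000074661 were lost in 7 and 6 of the 12 settings, with directions kept.

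In the authors' deposited table, the 11 rows had the same signs as here, and the same 9 had an adjusted p below 0.05. There Pde10a had a log2 fold change of -2.36, Pde1b of -1.84, Pde2a of -1.10 and Pde7b of -1.02.

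**Figure D5:**
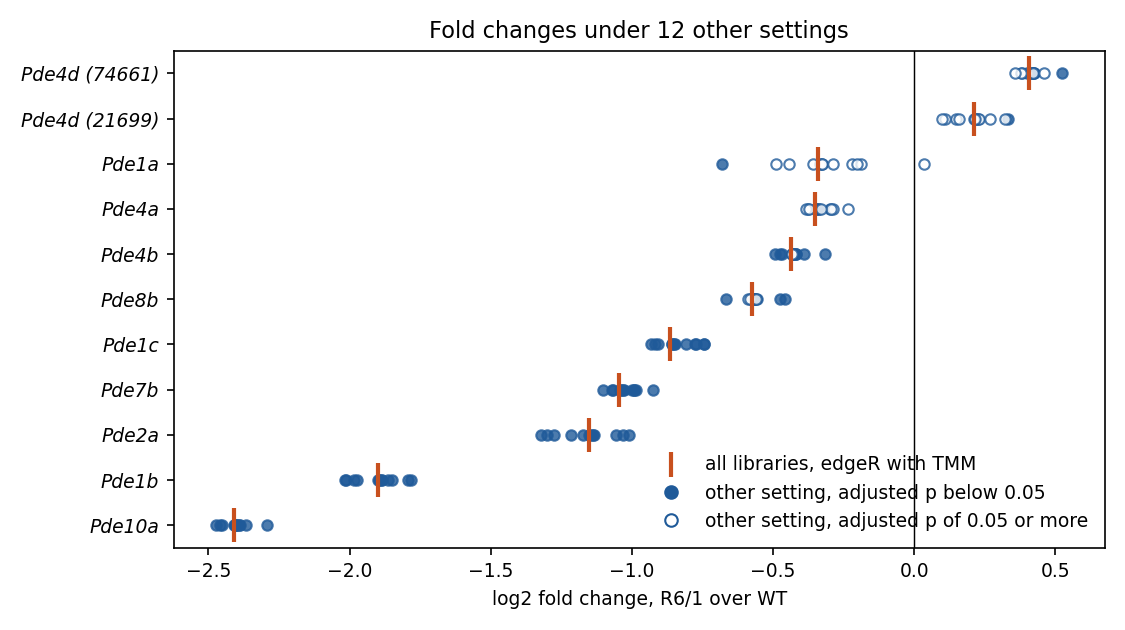
Log2 fold change of R6/1 over WT for each phosphodiesterase row under 12 other settings (normalization, filter, test, covariate, libraries left out), beside the value reported. Pde10a spans -2.47 to -2.29, whereas Pde1a spans -0.68 to 0.03.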

How the data were processed

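Raw read counts per Ensembl gene for 3 WT and 2 R6/1 libraries were deposited by the authors in 1 table, per the file headers. The same table holds a signal deposited by the authors, counts divided by 1 size factor per library, also per kb of gene length, and the authors' own comparison as log2 ratios with raw and adjusted p-values. Libraries were ribosomal RNA-depleted and strand-specific, per the labels' protocols. The build was mm9 and the tools were TopHat 1.4.1, HTSeq 0.5.4p3, CASAVA 1.8.2 and DESeq2 1.0.19, per the submitters' processing notes. The sources used here give neither the strand setting nor the Ensembl release.

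Counts were tested with edgeR 4.0.16 in R 4.3.3 (quasi-likelihood F test, TMM, filterByExpr with minimum count 10 and minimum total 15, genotype alone), with Benjamini-Hochberg adjustment over 17202 genes. The steps were tested on simulated data. CPM values are TMM-normalized, with 1 count worth 0.0277 to 0.0527 CPM after that scaling. SE is implied by the F statistic. Levels per kb, sums, shares and ratios use the authors' signal per kb, with exact permutation tests over 10 arrangements of the libraries. Alternatives were DESeq2 1.42.0, voom of limma 3.58.1, RLE scaling, no scaling, no filter, a covariate, and libraries left out. The covariate was the mean log2 CPM of the choroid plexus markers. Promoters are RefSeq windows of GRCm38.p6, whose build differs from that of the counts; 10 of 10 symbols matched.

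The members, gene lists and tests were chosen with earlier results of these data known. All members are named. From each pathway list up to 3 called genes with the smallest p are named, from the other phosphodiesterase genes every called one, and as most like Pde10a the 5 nearest genes of mean log2 CPM of at least 3 with no clone-style symbol. Genes named beyond this, among them Pde4c, Pde5a, Pde7a, Pde8a, Pde9a, Pde4dip, Hcn3 and Ppp1r1b, were chosen after their values were seen. A further pathway list is not reported here.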

Additional observations from a re-analysis of the deposited data

How the results depend on the processing

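Pde10a, Pde1b, Pde1c, Pde2a and Pde7b kept direction and call in all 12 alternatives, with highest adjusted p from 0.00360 (Pde10a) to 0.0484 (Pde1c). The number of phosphodiesterase rows called lower was 8, between 6 and 8 with all R6/1 libraries in the fit, and ranged from 5 to 8 when each library was left out in turn, with 5 without either R6/1 library. The number called higher was 1, became 2 without normalization beyond the library total, 0 with the choroid plexus covariate and 0 without WT replicates 1 and 2, and ranged from 0 to 1 when each library was left out. Over all genes, 3882 were called, 1840 with the covariate, and 1088 (without R6/1 replicate 2) to 4853 (without WT replicate 2) when each library was left out. Without normalization the split of all genes was 1694 lower and 3237 higher, against 2210 and 1672, with a median log2 fold change of 0.11. The log2 fold change of Pde1a reversed to 0.034 without WT replicate 2 and was called lower without WT replicate 1 (-0.68). The row ENSMUSG00000021699 of Pde4d was called higher without normalization (0.33, edgeR adjusted p = 0.0464) and in no other setting. The causes were not tested. The summed signal (log2 -1.51 to -1.42) and the ratio of Pde10a to Pde1b (difference -0.62 to -0.40) kept their direction in 7 alternatives each. Rescaling by TMM, among the 7, could not move the ratio. No paired analysis was possible because the replicate numbers only name the libraries. Fits with 1 library left in a group assume that it varies like the other group. The lowest count of any phosphodiesterase row was 390, and whether depth limits the smaller differences was not tested.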
